A study of Equus caballus with 3 samples.

Results

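The elastic fibre and microfibril genes were followed in equine mesenchymal stromal cells (MSCs) of 3 tissue sources, namely adipose tissue (AT), the marrow of bone (BM) and blood drawn from the periphery (PB). They were chosen by gene symbol as a set of 10, with earlier results of these data known. The set held *FBN1*, *MFAP2*, *MFAP4* and *MFAP5* of the microfibril and the fibulins *FBLN1*, *FBLN2* and *FBLN5*. It also held the crosslinking enzymes *LOX* and *LOXL1*, and *ELN*, which encodes the elastin precursor. Of the 29927 genes in the 3 matrices, 9 were members of this set, and *MFAP5*, which had no row under that symbol, was not analysed here. All cells came from 1 healthy Warmblood mare, 10 years old, so that the sources were donor-matched, and they had been through 2 passages in culture before capture in droplets. No treatment was given to any of them. The titles of the samples give the source of each library, whereas another label calls all 3 mononuclear cells of blood. Each source was 1 library, so source and library cannot be told apart, and no test was run. The 95% intervals are exact (Poisson for sums of unique molecular identifiers, UMIs, and Clopper-Pearson for shares of cells) and cover counting error only.

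An elastic fibre consists of an elastin core laid down on a scaffold of microfibrils. Fibrillin-1, the product of *FBN1*, is the main structural glycoprotein of microfibrils, and the small glycoproteins encoded by *MFAP2* and *MFAP4* associate with it. Fibulins connect microfibrils with elastin and with basement membrane proteins, and lysyl oxidases link elastin and collagen chains covalently. Fibroblasts and smooth muscle cells are known producers of these proteins in skin, tendon, lung and the arterial wall. *LOX* also acts on collagen, and microfibrils are laid down in some tissues without elastin.

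The kept cells, limited to between 2500 and 15000 UMIs and to a mitochondrial share of no more than 3%, numbered 5403 for AT, 5580 for BM and 5318 for PB. They held 39980656, 40239295 and 41622445 UMIs, with medians of 7291, 6874.5 and 7750 UMIs per cell. A level is the sum of the UMIs of a gene over the kept cells of a source relative to all UMIs of those cells, in counts per 1000000 (CPM). A limit of 3 UMIs corresponds to 0.0750 CPM in AT, 0.0746 CPM in BM and 0.0721 CPM in PB. The barcode of each of the 5318 PB-derived MSCs was also present in the AT library, mostly on barcodes below the lower UMI limit, and 72 PB, 76 AT and 77 BM barcodes were kept in more than 1 library. When the barcodes kept in more than 1 library were left out, all 27 differences between sources of the 9 genes stayed within their counting bounds. These barcodes were so few that leaving them out could hardly move the sums, so this says little about the sharing of barcodes. Leaving out every barcode that another library holds left 0 PB cells, so differences from PB could not be checked in that way. The 8 stromal markers were detected in each source, at unlike levels. In AT, BM and PB, *COL1A1* had 6259, 2700 and 6036 CPM and *PDGFRB* 44.7, 69.0 and 37.9 CPM. *THY1* was lowest in PB, with 665, 531 and 90.5 CPM. The 5 endothelial markers sum to under 0.2 CPM in each source. Of the 7 blood cell markers, *PTPRC* had no UMI, and *CD68*, a lysosomal gene of macrophages, made up most of the sum, with 6.88, 11.03 and 4.85 CPM. No cell type known to lack the set was present in these cultures, so the background from free RNA could not be read.

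As a sum over the 9 genes, AT-derived MSCs held the highest level, 2328 CPM (95% interval 2313 to 2343), followed by PB with 1198 CPM (1188 to 1209) and BM with 929 CPM (919 to 938). Of the 9 genes, 5 were at least 2-fold higher in AT than in BM, namely *MFAP4*, *FBLN1*, *FBN1*, *FBLN2* and *MFAP2*, and 0 were 2-fold lower. Among all genes with a UMI in at least 3 cells, 2.1% were 2-fold higher and 6.46% were 2-fold lower in the same comparison, and 2.46% and 8.33% of those that reached 10 CPM in AT or BM. Against PB, 3 of the 9 genes were at least 2-fold higher in AT (*FBLN1*, *MFAP4* and *LOX*) and 0 lower, where 3.66% and 4.59% of all genes and 4.02% and 5.8% of those with at least 10 CPM were. Between BM and PB, *FBLN1* was the 1 gene that was 2-fold higher in BM and *MFAP2* the 1 gene that was 2-fold lower, against 4.65% and 1.82% of all genes and 5.8% and 2.15% of those with at least 10 CPM. The fold was called on the difference of log2(CPM + 1), for which the median over the 9 genes was 1.38 for AT minus BM, 0.73 for AT minus PB and -0.11 for BM minus PB. The medians over all genes were -0.16, -0.03 and 0.14. Scaling factors from the trimmed mean of M values were also used in place of library totals. For genes far above 1 CPM, these shift AT minus BM by 0.28, AT minus PB by 0.04 and BM minus PB by -0.23. Genes near or below 1 CPM in a source shift by other amounts. With 1 factor per library, only small differences could turn their direction, and none of the 27 did. Of these counts, the 5 and the 3 held under each alternative that gave a value. The counts of 0 became 1 in AT below BM after thinning each cell to 2500 UMIs (*LOXL1*) or with a pseudocount of 0.1 CPM (*FBLN5*) and 1 in AT below PB with that pseudocount (*FBLN5*), and between BM and PB the counts ranged from 1 to 2 genes higher and from 0 to 2 lower in BM.

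**Figure D1:**
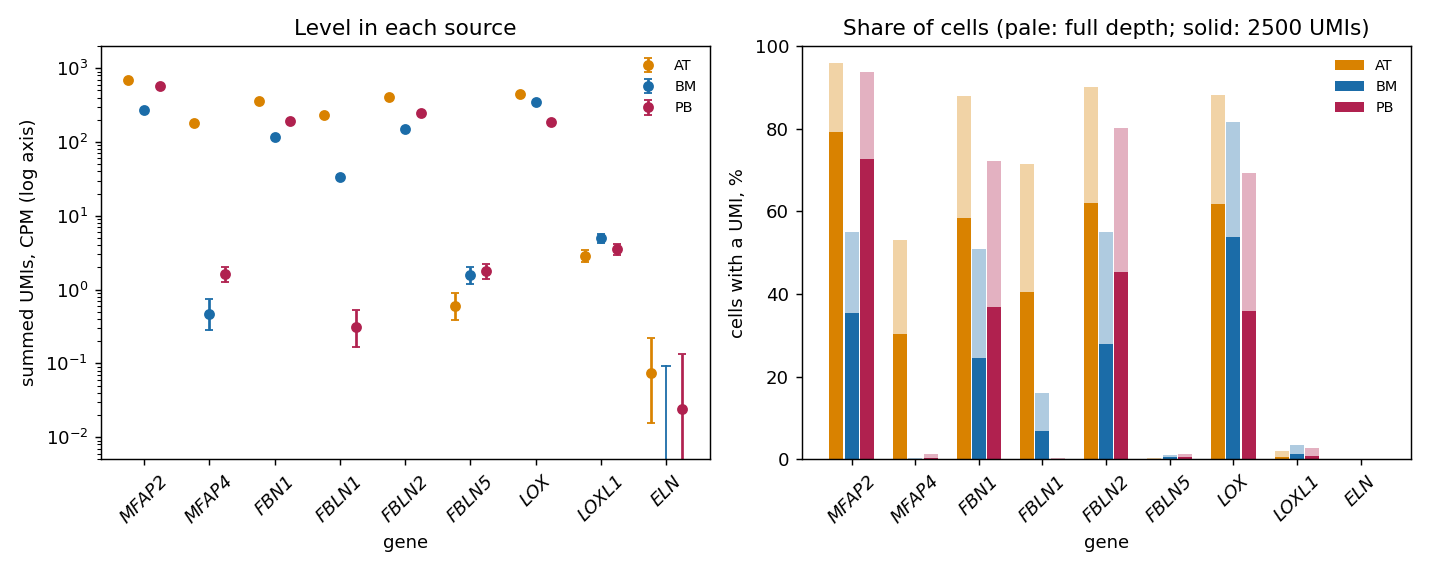
Left, level of each gene in AT-, BM- and PB-derived MSCs (summed UMIs in CPM, log axis; points, values; bars, exact 95% Poisson intervals; for *ELN* in BM, which had no UMI, the line ends at the upper limit). Right, share of cells with a UMI of the gene (%), at full depth (pale) and after thinning each cell to 2500 UMIs (solid). *MFAP4* stands at 179.1 CPM in AT against 0.472 in BM and 1.61 in PB, and *FBLN1* at 232, 33.5 and 0.312 CPM.

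*FBN1* (chromosome 1, plus strand, EquCab3.0) had UMI sums of 14411 (AT), 4705 (BM) and 7984 (PB). Its level was 360 CPM (355 to 366) in AT, 117 CPM (114 to 120) in BM and 192 CPM in PB. The order was AT, PB, BM, with AT 3.08-fold above BM (2.98 to 3.19), AT 1.88-fold above PB (1.83 to 1.93) and PB 1.64-fold above BM (1.58 to 1.70). No 2 sources overlapped in their intervals. Because deeper cells show more genes, shares of cells were compared at a matched depth, with 2500 UMIs drawn at random from each cell. *FBN1* was then found in 58.3%, 24.5% and 37.0% of AT-, BM- and PB-derived MSCs, and in 87.8%, 50.8% and 72.3% at full depth.

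*MFAP2* (chromosome 2, plus strand) encodes the microfibril-associated glycoprotein MAGP-1, which binds fibrillins. Its 28058, 10831 and 23546 UMIs in AT, BM and PB gave 702 CPM (694 to 710), 269 CPM (264 to 274) and 566 CPM (559 to 573). AT was 2.61-fold above BM (2.55 to 2.67) and PB was 2.10-fold above BM (2.05 to 2.15), while AT and PB lay closer, at 1.24-fold (1.22 to 1.26). At matched depth a UMI of *MFAP2* was found in 79.1% of AT-derived and 72.6% of PB-derived MSCs, and in 35.5% of BM-derived MSCs. This gene made up 47.2% of the UMIs of the set in PB, against 30.2% in AT and 29.0% in BM. The counts per cell were also the most uneven of the set in BM. The ratio of variance to mean at 2500 UMIs per cell was 1.81, at percentile 98.1 of 4790 genes with a mean of at least 0.05 UMIs, where the median gene had 1.03, against ratios of 1.26 in AT and 1.19 in PB.

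*MFAP4* (chromosome 11, plus strand) encodes a fibrinogen-related glycoprotein that binds tropoelastin and fibrillin-1. It had 7160 UMIs in AT, against 19 in BM and 67 in PB, that is 179.1 CPM (175.0 to 183), 0.472 CPM (0.284 to 0.737) and 1.61 CPM (1.25 to 2.04). The level in AT was 379-fold that of BM (243 to 630) and 111-fold that of PB (87.5 to 144). A UMI was found in 30.2% of AT-derived MSCs at matched depth and in 53.0% at full depth, with up to 15 UMIs in a cell. The corresponding shares were 0.143% and 0.323% in BM and 0.451% and 1.24% in PB. In BM and PB these UMIs were scattered: the 19 lay in 18 cells, the 67 in 66 cells, and no cell held more than 2. PB was 3.41-fold above BM (2.02 to 6.01), but both levels rest on single UMIs per cell.

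*FBLN1* (chromosome 28, plus strand) encodes fibulin-1, a calcium-binding glycoprotein of elastic fibres and basement membranes. Its UMI sums in AT, BM and PB were 9280, 1346 and 13. The levels were 232 CPM in AT, 33.5 CPM (31.7 to 35.3) in BM and 0.312 CPM (0.166 to 0.534) in PB. Thus all 3 sources were well apart: AT was 6.94-fold above BM (6.55 to 7.35) and 743-fold above PB (434 to 1396), and BM was 107-fold above PB (62.4 to 202). At 2500 UMIs per cell, 40.5%, 6.85% and 0.0564% of AT-, BM- and PB-derived MSCs had a UMI. The 13 UMIs of PB lay in 13 cells. On the log2(CPM + 1) scale, AT minus BM was 2.76, and 3.43 without BM cluster 4 (a group of cells described below) or 3.38 in cells called G1, while BM minus PB was 4.71, and 4.04 without that cluster or 4.16 in cells called G1. With a pseudocount of 25 CPM in place of 1 the differences of *FBLN1* were 2.14 for AT minus BM, 3.34 for AT minus PB and 1.21 for BM minus PB, and those of *MFAP4* were 3.00 and 2.94 for AT against BM and PB.

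Since the barcodes of PB-derived MSCs recurred in the AT library, the same genes were read on those barcodes. The 5711 AT barcodes that lay below 2500 UMIs and were shared with PB had 7.93 CPM of *MFAP4* and 8.13 CPM of *FBLN1*. The 444 AT barcodes below the limit that were not shared had 129 and 196 CPM, and the 5329 kept AT barcodes that were not shared had 179.7 and 233 CPM. These 5711 barcodes thus had lower levels of both genes than the AT barcodes that were not shared. Both levels were above those of PB, at 1.61 CPM of *MFAP4* and 0.312 CPM of *FBLN1*. On the 5711 barcodes, *LOX*, *FBN1*, *FBLN2* and *MFAP2* had 181, 202, 251 and 607 CPM. PB had 188, 192, 245 and 566 CPM of these genes, and the kept AT barcodes that were not shared had 443, 361, 409 and 702 CPM. None of these 5711 barcodes was among the kept cells behind the AT levels given here, and how they came to be in the AT library was not tested.

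*FBLN2* (chromosome 16, plus strand) encodes fibulin-2, which binds fibrillin-1 and tropoelastin. The sums of 16333 (AT), 6089 (BM) and 10200 (PB) UMIs gave 409 CPM (402 to 415), 151 CPM (148 to 155) and 245 CPM (240 to 249.9). The order of sources was that of *FBN1* and *MFAP2*, with AT 2.70-fold above BM (2.62 to 2.78), AT 1.67-fold above PB (1.63 to 1.71) and PB 1.62-fold above BM (1.57 to 1.67). At matched depth it was found in 62.1%, 27.9% and 45.2% of AT-, BM- and PB-derived MSCs. *FBLN5* (chromosome 24, minus strand), whose product tethers elastin to the cell surface and to microfibrils, had low counts. Its 24 (AT), 63 (BM) and 74 (PB) UMIs gave 0.60, 1.57 and 1.78 CPM. PB and BM could not be separated (BM over PB 0.881-fold, 0.619 to 1.25), while BM was 2.61-fold above AT (1.61 to 4.37) and PB 2.96-fold above AT (1.85 to 4.91) by the ratio of sums. On the log2(CPM + 1) scale, both were under 2-fold (AT minus BM -0.68 and AT minus PB -0.80).

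*LOX* (chromosome 14, plus strand) had the other order. Its product, lysyl oxidase, oxidizes lysines of elastin and collagens, from which the crosslinks form. The 17676 (AT), 14126 (BM) and 7845 (PB) UMIs of *LOX* gave 442 CPM (436 to 449), 351 CPM (345 to 357) and 188 CPM (184 to 193). AT was 1.26-fold above BM (1.23 to 1.29) and 2.35-fold above PB (2.28 to 2.41), and BM was 1.86-fold above PB (1.81 to 1.91), so that PB and not BM was lowest. At matched depth *LOX* was found in 61.7%, 53.9% and 35.8% of AT-, BM- and PB-derived MSCs. It made up 37.8% of the UMIs of the set in BM, against 19.0% in AT and 15.7% in PB. Its paralog *LOXL1* (chromosome 1, minus strand), known for its part in elastin upkeep, had 113, 198 and 147 UMIs in AT, BM and PB. These correspond to 2.83 CPM (2.33 to 3.40), 4.92 CPM (4.26 to 5.66) and 3.53 CPM (2.98 to 4.15). BM was 1.74-fold above AT (1.37 to 2.21), and AT and PB could not be separated (AT over PB 0.80-fold, 0.621 to 1.03).

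*ELN* (chromosome 13, plus strand), the core component, was nearly undetected. AT-derived MSCs had 3 UMIs, BM-derived 0 and PB-derived 1, each in a different cell. For BM, 0 of 5580 cells allows a share of up to 0.0538% of cells with a UMI by the limit of 3 counts, and the exact 95% upper bound was 0.0661%. The levels of all 3 sources were at or under the limit of 3 UMIs, so no fold was formed and no order can be read. UMIs are counted near the 3′ end of a transcript, and the authors left out exons that overlap on opposite strands. Whether the annotation of the 3′ end limits the counts of *ELN*, *FBLN5* or *LOXL1* in the horse was not tested.

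**Figure D2:**
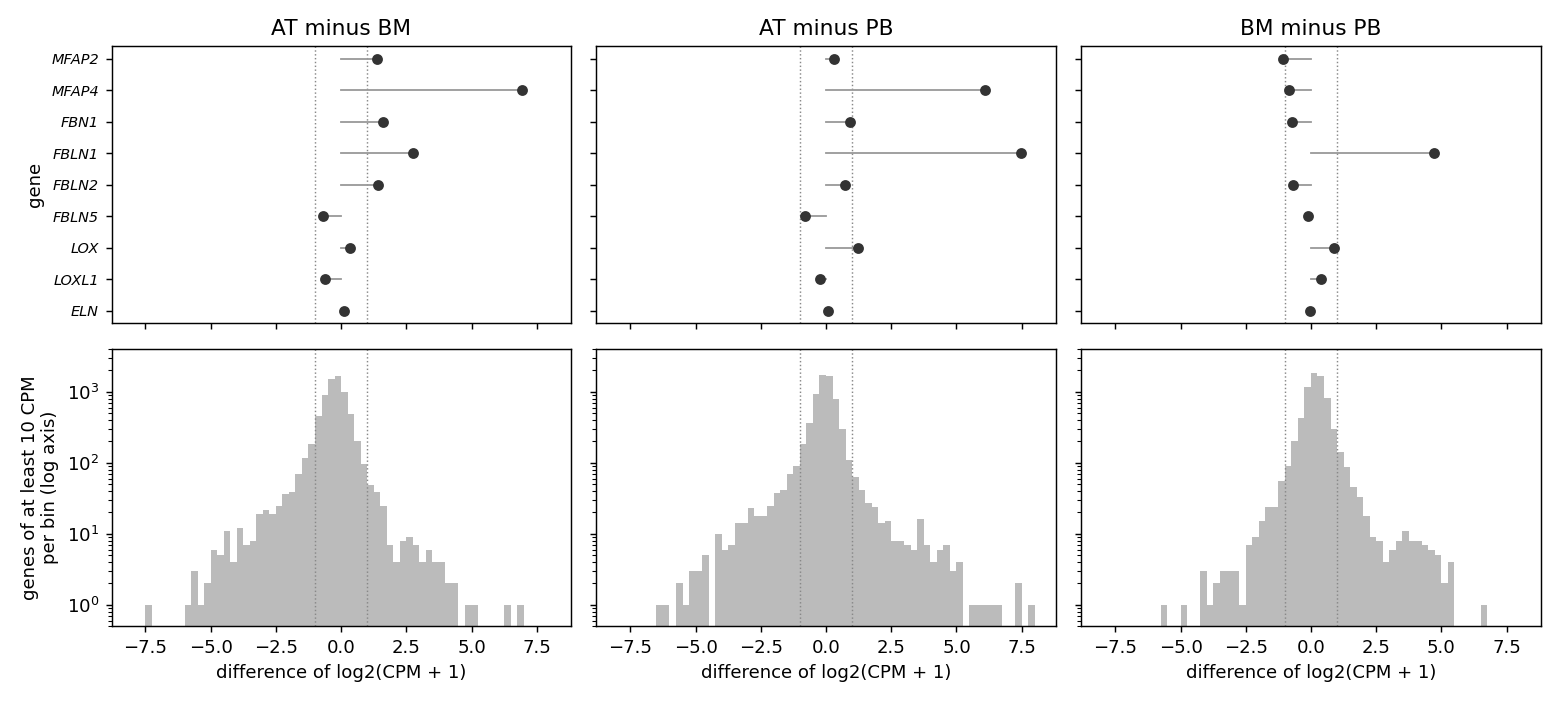
Upper row, difference of log2(CPM + 1) of each gene between 2 sources (points, with a line from 0). Lower row, the same difference for all genes with at least 10 CPM in either of the sources compared (genes per bin, log axis). Dotted lines mark 2-fold. *MFAP4* (6.93 and 6.11) and *FBLN1* (2.76 and 7.47) lie far to the AT side against BM and PB, while the medians of the genes in the lower row were -0.24 and -0.03.

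The set was then counted within single cells. At 2500 UMIs per cell, an AT-derived MSC had UMIs of 3.33 of the 9 genes on average, against 1.51 in BM and 1.93 in PB. At least 5 of the genes were found in 16.5% (15.5 to 17.5%) of AT cells, 0.161% (0.0738 to 0.306%) of BM cells and 0.0940% (0.0305 to 0.219%) of PB cells. None was found in 0.888%, 14.6% and 5.87%. The number of genes of the set above 10 CPM was 6 in AT, 5 in BM and 4 in PB. At full depth the shares with at least 5 genes were 69.2%, 5.36% and 2.73%. They were 0.241%, 0% and 0% when 2 UMIs of a gene were asked for at matched depth. In cells called G1 the shares were 18.6%, 0.0267% and 0.125%. Those of BM and PB rest on very few cells, so no order of these 2 sources is read from them.

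Within a source, the counts of these genes were at most weakly correlated from cell to cell. Pearson's r of log-scaled thinned counts was at most 0.067 over 15 pairs of genes in AT (*MFAP2* and *FBLN2*), 0.119 over 10 pairs in BM (*MFAP2* and *FBLN1*) and 0.021 over 6 pairs in PB (*FBLN2* and *LOX*). The 0 pairs above 0.2 in each source are a description of sparse counts that share library and depth. In BM, *FBLN1* was found in 10.4% of cells with and 4.92% of cells without a UMI of *MFAP2*.

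**Figure D3:**
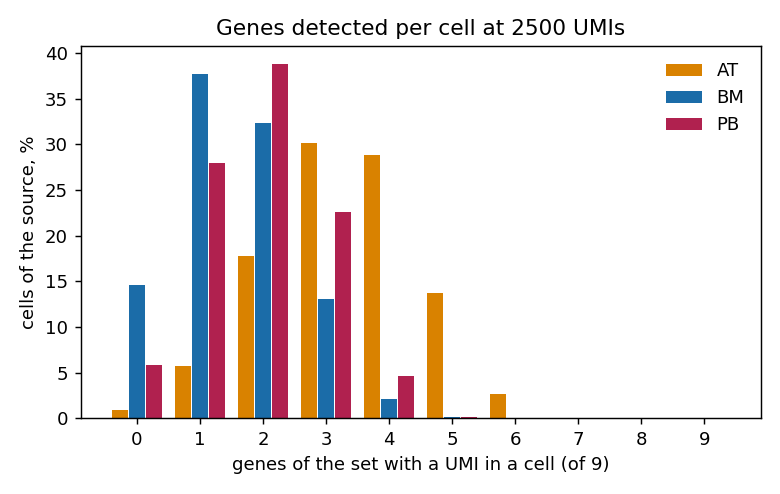
Share of AT-, BM- and PB-derived MSCs (%) by the number of the 9 genes with a UMI after thinning each cell to 2500 UMIs. The most common number is 3 in AT, 1 in BM and 2 in PB.

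To describe variation within each source, the cells were clustered again with the settings of the study but without the genes of the set among the variable genes. This gave 7 clusters in AT, 8 in BM and 10 in PB, of which 7, 7 and 9 had at least 100 cells. A range is the difference of log2(CPM + 1) between the highest and the lowest of these clusters, and clusters of 1 library are not replicates. Among the genes of the set with at least 10 CPM, the range was at least 2-fold for 2 of 6 in AT (*MFAP4* and *FBLN1*), 4 of 5 in BM (*MFAP2*, *FBLN1*, *FBLN2* and *LOX*) and 0 of 4 in PB. Of all genes with at least 10 CPM, 20.1% in AT, 33.8% in BM and 46.7% in PB passed the same limit. In clusters with at most 50% of cells called S or G2M, over all 9 genes, the count went from 2 to 1 in AT (*MFAP4*) and from 5 to 2 in BM (*MFAP2* and the sparse *FBLN5*), and it was 4 in AT after thinning to 2500 UMIs per cell. The share of all genes is not given for these settings, so nothing about the set is read from these counts. In BM this limit leaves out clusters 4, 6 and 7, and whether the lower count reflects the cell cycle was not tested. *FBN1* stayed within 2-fold in each source, from 237 to 426 CPM in AT, 90.2 to 149 CPM in BM and 153 to 241 CPM in PB. Its range in AT was at percentile 69.5 of all genes with at least 10 CPM.

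**Figure D4:**
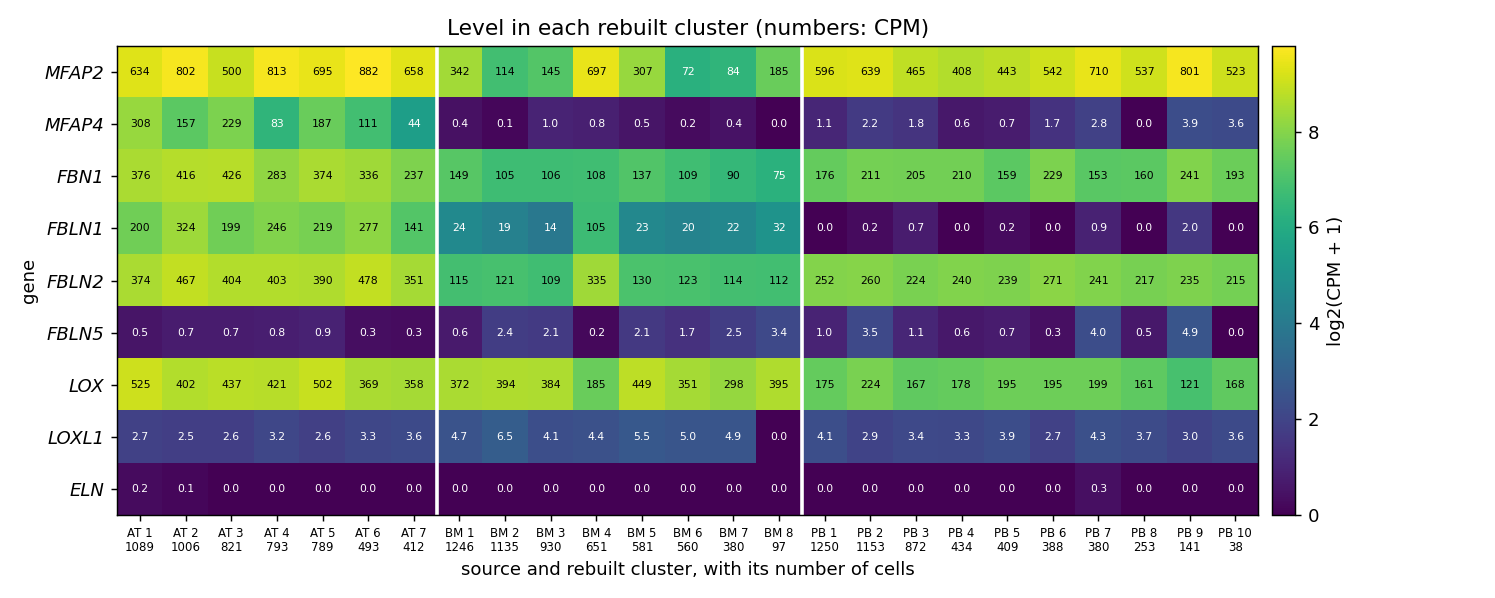
Level of each gene in each rebuilt cluster of AT-, BM- and PB-derived MSCs (numbers, CPM; colour, log2(CPM + 1)), with the number of cells under each cluster. BM cluster 4 stands out with 697 CPM of *MFAP2*, 105 CPM of *FBLN1* and 335 CPM of *FBLN2*, and AT cluster 1 with 308 CPM of *MFAP4*.

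In BM, much of this variation lay in cluster 4, a group of 651 cells of which 90.02% were called S or G2M. Its leading genes by fold included *CALCA*, *EMB*, *IGFBP5*, *HMX2*, *IGFBP3* and *HMX3*, and no cell type is named for it here. *MFAP2* was at 697 CPM (676 to 718) in these cells and 192 CPM (187 to 197) in the other BM-derived MSCs. *FBLN1* was at 105 CPM (97.0 to 113) against 20.6 CPM (19.1 to 22.1), and *FBLN2* at 335 CPM (321 to 350.1) against 118 CPM (115 to 122). The cluster thereby held 39.5% of the *MFAP2*, 47.9% of the *FBLN1* and 33.8% of the *FBLN2* UMIs of BM. The crosslinking enzyme went the other way, with *LOX* at 185 CPM (175 to 196) in the cluster and 381 CPM (374 to 388) outside, while *FBN1* was similar at 108 CPM (100.02 to 117) and 119 CPM (115 to 122). At matched depth *MFAP2* was found in 79.6% of the cells of the cluster and 29.7% of the others. The cells of the cluster were deeper, with a median of 9467 UMIs, and 13 of their barcodes were also kept in another library. Without this cluster the sum of the set in BM was 837 CPM, *FBLN2* was past 2-fold in PB over BM (BM minus PB -1.05) and *LOX* past 2-fold in BM over PB (1.01), so that 2 genes were higher and 2 lower between BM and PB.

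Among the other BM clusters, *MFAP2* ranged from 72.4 CPM in cluster 6 to 342 CPM in cluster 1. Cluster 6 (560 cells) had 98.8% of cells called S or G2M and the proliferation genes *TOP2A* and *CENPF* among its leading genes. Cluster 7 (380 cells), with 66.1% of cells called S or G2M, had 84.0 CPM of *MFAP2*. Both thus lay at the low end for *MFAP2*, whereas cluster 4, which had no proliferation gene among the named ones of its 10 leading genes, lay at the high end. Low *MFAP2* was not particular to clusters 6 and 7. Clusters 2 and 3, with 16.0% and 6.34% of cells called S or G2M, had 114 and 145 CPM. *LOX* was between 298 and 449 CPM in the clusters other than cluster 4 with at least 100 cells, and *FBLN1* between 14.3 and 24.3 CPM.

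In AT, *MFAP4* spanned 44.1 to 308 CPM over the 7 clusters, a range at percentile 98.4 of 6206 genes. It was highest in cluster 1, with 308 CPM (297 to 320.3) against 143.7 CPM (140 to 148) in the other AT-derived MSCs. The 1089 cells of cluster 1 were led by the contractile genes *DES*, *ACTG2*, *ACTA2* and *CNN1*, and the 7 markers of smooth muscle or pericytes sum to 6469 CPM in it against 829 to 1857 CPM in the other AT clusters. In the whole sources the same markers sum to 2456 CPM in AT, 3037 CPM in BM and 2338 CPM in PB, with all 7 detected in each. These sums were mostly *TAGLN* and *ACTA2*. Of the genes that led cluster 1, *DES* had 204, 5.04 and 0.288 CPM and *ACTG2* 422, 184 and 52.4 CPM in AT, BM and PB, with AT highest as for *MFAP4*. *ACTA2*, with 721, 763 and 613 CPM, and *CNN1*, with 106, 162 and 33.1 CPM, were instead highest in BM, and *TAGLN*, with 997, 1918 and 1637 CPM, was lowest in AT. Of the 7 markers, 2 were at least 2-fold higher in AT than in BM, 4 in AT than in PB and 4 in BM than in PB. Each comparison had 0 lower, and 2.1%, 3.66% and 4.65% of all genes were higher. *MFAP4* was instead lower in BM than in PB, at 0.472 and 1.61 CPM. In BM clusters 5 and 8 the 7 markers sum to 5113 and 5193 CPM, with *MFAP4* at 0.461 and 0 CPM. The part of the markers in the *MFAP4* level was not tested. In AT, the next highest *MFAP4* level, 229 CPM, was in cluster 3, where the markers sum to 1301 CPM. Without cluster 1, *MFAP4* was still far above the other sources on the log2(CPM + 1) scale (6.62 against BM and 5.79 against PB). The lowest level was in cluster 7, in which 100% of 412 cells were called S or G2M and *TOP2A* and *CDK1* were among the leading genes. The marker sum of cluster 7, 1857 CPM, was the highest in AT outside cluster 1. *FBLN1* was also lowest there, at 141 CPM, and highest in cluster 2, at 324 CPM. In PB the genes above 10 CPM stayed within 2-fold, with *MFAP2* from 408 to 801 CPM and *LOX* from 121 to 224 CPM.

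The cell cycle phase called for each cell was set beside these levels. Cells called G1 made up 59.2%, 67.2% and 60.2% of the AT, BM and PB libraries. *MFAP4* in AT was at 214.3 CPM in G1, 137 CPM in S and 109 CPM in G2M cells, the widest spread of the set in that source. The same order was seen outside cluster 1, with 176 CPM in G1, 109.7 CPM in S and 92.5 CPM in G2M cells. In BM, *MFAP2* was at 238, 298 and 354 CPM in G1, S and G2M cells, *FBLN1* at 22.6, 44.6 and 61.0 CPM and *FBLN2* at 123, 191 and 209 CPM. Outside cluster 4 the order for *MFAP2* was turned, with 223, 122 and 92.1 CPM, and the other genes were nearly level across phases (*FBLN1* 20.4, 22.3 and 19.0 CPM and *FBLN2* 117, 124 and 117 CPM). The higher BM levels of these genes in S and G2M cells thus lay mostly in cluster 4. Its 65 cells called G1 had 838 CPM of *MFAP2* and 115 CPM of *FBLN1*. *LOX* in BM was at 390, 319 and 243 CPM in G1, S and G2M cells, and at 394, 378 and 297 CPM outside the cluster. It was thus lower in G2M than in G1 cells with and without the cluster. Outside the cluster the intervals of S (362 to 394) and G1 (386 to 402) overlapped. In PB the phases lay closer, with *MFAP2*, the widest of the genes above 10 CPM there, at 581, 579.9 and 486 CPM.

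**Figure D5:**
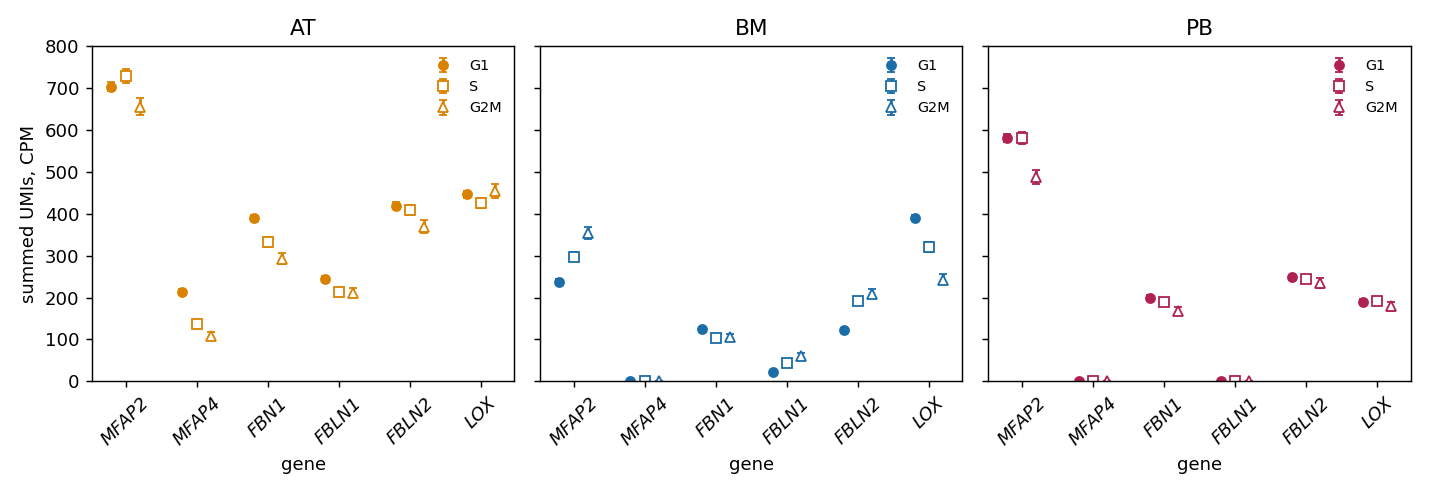
Level (summed UMIs, CPM) of 6 genes in cells called G1, S and G2M of AT-, BM- and PB-derived MSCs (points, values; bars, exact 95% Poisson intervals). *MFAP4* in AT lies at 214.3 CPM in G1 and 109 CPM in G2M cells, and in BM *LOX* lies at 390 CPM in G1 and 243 CPM in G2M cells while *MFAP2* lies at 238 and 354 CPM.

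For each of the 6 genes, the genes with the most similar profile over the 23 clusters of at least 100 cells were listed among 7211 genes of at least 10 CPM in a source. The measure was Pearson's r of log2(CPM + 1), which mostly reflects the differences between the 3 libraries and is given without a test. For *MFAP4* these were ENSECAG00000033567 (0.98), *SMOC2* (0.97) and *CCDC80* (0.96). *SMOC2*, which encodes a matricellular calcium-binding protein, had 18.5 CPM in AT, 0.249 CPM in BM and 0 in PB. For *FBLN1* they were *HOXC10* (0.98), *TBX15* (0.97) and *GRK5* (0.95), of which *HOXC10* and *TBX15* encode transcription factors. *HOXC10* had 21.2 CPM in AT, 5.69 CPM in BM and 0 in PB. For *MFAP2* they were *EMX2*, *SHOX2* and *OCIAD2* (each 0.88), and for *FBLN2* they were *EMX2*, *ACKR4* and *RGS10* (each 0.94). *EMX2*, a homeobox gene, was listed for both and had 56.7, 5.19 and 21.6 CPM in AT, BM and PB. *FBN1* was most like *ATF5* (0.97) and the unnamed genes ENSECAG00000026938 (0.96) and ENSECAG00000016873 (0.95), and *LOX* was most like *MEIS2* (0.94), *FSTL1* (0.92) and ENSECAG00000032710 (0.91). Within the set, the highest r was between *MFAP4* and *FBN1* (0.87) and the lowest between *MFAP2* and *LOX* (-0.21).

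The wider machinery of elastic fibres, 47 further genes on 6 lists, was split in direction. Past 2-fold were 7 genes higher and 10 lower in AT than in BM, 5 higher and 8 lower in AT than in PB, and 6 higher and 4 lower in BM than in PB. Of all genes, 2.1% and 6.46%, 3.66% and 4.59%, and 4.65% and 1.82% did so in these comparisons, shares against which the counts of each list below are also to be read. The medians were -0.11, -0.09 and 0.04 on the log2 scale, against 1.38, 0.73 and -0.11 for the set. For further fibrillins, fibulins and microfibril proteins (14 genes), 3 were higher and 2 lower in AT than in BM, 3 were higher and 0 lower in AT than in PB, and 4 were higher and 0 lower in BM than in PB. The fibulin-4 gene *EFEMP2*, whose product assists elastin crosslinking, was close to even with 388, 305 and 333 CPM in AT, BM and PB, and *EFEMP1*, the fibulin-3 gene, had 92.8, 35.8 and 11.004 CPM, in the order of *FBLN1*. The elastin-binding *EMILIN1* was at 49.4, 86.2 and 70.3 CPM. Chosen after their values were seen, *EMILIN2* had 13.1, 0.422 and 0.240 CPM and *HMCN1*, for hemicentin-1, had 11.9, 3.70 and 0 CPM. The 2 genes lower in AT than in BM, named for the same reason, were the fibrillin-2 gene *FBN2* with 0.200, 5.17 and 0.601 CPM and *FBLN7* with 0.850, 5.37 and 0.0721 CPM.

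Some of the latent TGF-beta binding proteins tie the growth factor to microfibrils. *LTBP1* was highest in BM (42.3, 124 and 84.2 CPM in AT, BM and PB), *LTBP2* was highest in AT (109, 81.2 and 44.7 CPM), and *LTBP3* had 34.1, 39.5 and 44.3 CPM. Of these 4 genes, 1 was past 2-fold higher and 1 lower in AT than in BM, 1 higher and 0 lower in AT than in PB, and 0 higher and 1 lower in BM than in PB. Among 6 other crosslinking genes, 1 was higher and 2 lower in AT than in BM, 0 higher and 3 lower in AT than in PB, and 0 higher and 1 lower in BM than in PB. *BMP1*, for a protease that activates pro-lysyl oxidase, was nearly even (73.5, 62.9 and 63.2 CPM), *LOXL2* was at 59.7, 39.9 and 39.8 CPM, and *LOXL3* was lowest in AT (6.48, 20.3 and 16.1 CPM). Among the 8 ADAMTS and ADAMTSL genes, 2 were higher and 1 lower in AT than in BM, 1 higher and 2 lower in AT than in PB, and 0 in either direction between BM and PB. *ADAMTSL5* had 5.75, 12.2 and 9.25 CPM, *ADAMTS6* had 11.9, 3.11 and 4.16 CPM and *ADAMTSL4* had 10.5, 6.54 and 9.47 CPM.

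Of 12 elastases and inhibitors, 0 were higher and 4 lower in AT than in BM, 0 higher and 3 lower in AT than in PB, and 2 higher and 2 lower in BM than in PB. These counts pool proteases with inhibitors. The 4 lower in AT than in BM were the proteases *CTSK* and *CTSS* and the inhibitors *TIMP3* and *CST3*. The cysteine protease inhibitor *CST3* was at 782, 2135 and 1202 CPM in AT, BM and PB, and the metalloprotease inhibitors *TIMP1* at 761, 499 and 1016 CPM and *TIMP2* at 532, 749.7 and 314 CPM. Chosen after its values were seen, *CTSK*, for the elastolytic and collagenolytic cathepsin K, had 62.5 CPM in AT, 471 CPM in BM and 126 CPM in PB. This order was the reverse of that of *MFAP2*, *FBN1* and *FBLN2*. It was not particular to *CTSK*, since *CST3*, *LTBP1*, *LOXL3* and *EMILIN1*, among others, had the same order. The 3 genes of the elastin receptor stayed within 2-fold in each comparison on the log2(CPM + 1) scale (for *NEU1*, BM over PB was 2.03-fold by the ratio of sums), with *GLB1* at 56.8, 59.8 and 65.7 CPM, *CTSA* at 28.3, 36.1 and 30.3 CPM and *NEU1* at 14.3, 17.6 and 8.70 CPM.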

How the data were processed

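Single-cell RNA-seq libraries (10X Genomics 3′ chemistry, version 2) of AT-, BM- and PB-derived MSCs were analysed, 1 per source. The authors mapped reads to EquCab3.0 with Cell Ranger and counted UMIs per gene with ESAT, which adds reads just downstream of genes, leaving out exons overlapping on opposite strands. The deposited values are whole-number UMI counts without normalization. The matrices held 11757, 6455 and 6180 barcodes. Filters, phases and clusters followed the study's methods (Seurat 5.3.0, sctransform 0.4.2, R 4.3.3; 3000 variable genes, 14, 23 and 20 principal components, 20 neighbours, resolution 0.6). Its multiplet caller was not run, and doublets were limited by the upper UMI bound. Differences are of log2(CPM + 1), called at 1, and intervals came from SciPy 1.17.1. edgeR 4.0.16 gave scaling factors only. Arithmetic was tested on simulated counts.

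The members and lists were chosen with earlier results of these data known. Named were all members, the 3 genes with the highest CPM of each of 6 pathway lists, and the 3 genes most like each member with at least 10 CPM. *EMILIN2*, *HMCN1*, *FBN2*, *FBLN7*, *LTBP4*, *CTSS*, *TIMP3* and *CTSK*, and the markers and leading genes of clusters, were named outside this rule, after their values were seen. Marker lists sum to the following CPM in AT, BM and PB: stromal 15904, 8994 and 15835, haematopoietic 7.10, 12.4 and 6.10, endothelial 0.100, 0.0994 and 0.192, smooth muscle or pericyte 2456, 3037 and 2338, osteoblast 3.90, 156 and 369 (4 of 5 found), adipocyte 2.10, 3.70 and 0.120, chondrocyte 1.63, 12.7 and 6.90, and epithelial (3 of 4 found, nearly all *KRT8*) 45.4, 1.22 and 0.0481. Alternatives were thinning to 2500 UMIs, a lower limit of 500 UMIs, no upper or mitochondrial limit, removal of the 5% highest Scrublet scores (Scanpy 1.11.5) or of shared barcodes, mean single-cell CPM, G1 cells, scaling factors, pseudocounts of 25 and 0.1 CPM, other gene filters and other cluster settings.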

Additional observations from a re-analysis of the deposited data

How the results depend on the processing

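With 1 library per source, library and source cannot be told apart, no outlier could be assessed, and counting intervals are the only error given. No paired analysis was possible because each source had 1 library and no test was run. Of 360 values of single genes recomputed under 14 alternatives, 273 stayed within their counting bounds, 87 moved and 358 kept their sign. The exceptions, both in BM minus PB, were *ELN* after thinning (0) and *FBLN5* without BM cluster 4 (0.02). The 360 values include those of *ELN*, with 3, 0 and 1 UMIs in AT, BM and PB, so a kept sign of *ELN* says nothing about its order. The counts of genes past 2-fold in AT over BM (5) and in AT over PB (3) stayed the same under each alternative that gave a value. In AT below BM the count was 1 after thinning to 2500 UMIs (*LOXL1*, -1.05) and 1 with a pseudocount of 0.1 CPM (*FBLN5*, -1.25), and in AT below PB it was 1 with that pseudocount (*FBLN5*, -1.42). For BM below PB it was 0 without an upper UMI limit (*MFAP2*, -0.996), 2 with the pseudocount of 0.1 CPM (*MFAP4*, -1.58, in addition) and 2 in G1 cells, where BM above PB was also 2 (*FBLN2*, -1.01, and *LOX*, 1.03). Without BM cluster 4, chosen after seeing the data like the alternatives without AT cluster 1 and without barcodes kept in more than 1 library, both counts were 2. Summed CPM moved to 909 in BM when thinned, 2218 in AT with a limit of 500 UMIs (10493 barcodes, most of those added being barcodes that the PB library also holds), 2304 in AT and 1181 in PB without an upper limit, 911 in BM as mean single-cell CPM, 2419, 904 and 1226 in AT, BM and PB in G1 cells, 2509, 825 and 1252 with scaling factors, 837 in BM without cluster 4 and 2302 in AT without cluster 1. Background shares, in the order AT over BM, AT over PB and BM over PB, each higher then lower, were 2.46, 8.33, 4.02, 5.80, 5.80 and 2.15% for genes of at least 10 CPM and 1.79, 5.49, 3.12, 3.91, 3.93 and 1.54% without a filter. Over clusters, counting all 9 genes, 2 in AT, 5 in BM and 3 in PB passed 2-fold. The count was 4 in AT after thinning and, in clusters with at most 50% S or G2M cells, 1 in AT and 2 in BM. Under the other cluster settings and thinning, the count ranged from 5 to 7 in BM and, over all settings, from 2 to 4 in PB. The share of all genes is not given for these alternatives, so their counts are not set against one. The share of cells with at least 5 genes was 0.241% in AT and 0 in BM and in PB at a threshold of 2 UMIs, 69.2, 5.36 and 2.73% at full depth, and 18.6% in AT and 0.0267% in BM in G1 cells. The alternative without any barcode that another library holds left 0 PB cells, so it gave AT and BM values only. The cause of these shifts was not tested.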
